A study of Mus musculus with 4 samples.

Results

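Nuclear receptors are transcription factors that bind a small fat-soluble ligand, or in the orphan receptors none that is known, and then act on genes through DNA elements built from short half-sites. Steroid receptors mostly pair with themselves and leave their chaperones on binding hormone, whereas the receptors for retinoic acid, thyroid hormone, fatty acids and oxysterols pair with a retinoid X receptor. In the vessel wall they are known for effects of glucocorticoid, aldosterone and estrogen on vascular tone, of retinoic acid on the outflow tract during development, and of PPAR and LXR on lipid handling. The genes examined were 38 members of this family, chosen by symbol from a fixed list and not by their levels. Earlier results of these data were known when the list was chosen. Of the 32948 genes in the table, 32 members were listed (not Rxrg, Nr1h4, Nr1i2, Nr1i3, Nr5a1 and Vdr, which were not analysed here), and 22 had enough reads to enter the tests.

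The libraries came from cells of the ascending aorta and arch of Wnt1-Cre;Rosa26-mTmG mice, whose age and strain background are not given in the sources used here. All animals carried both alleles: cells in which Wnt1-driven Cre acted, and the descendants of those cells, show green GFP, and all others keep red tdTomato. Wnt1-Cre acts in the neural crest, so the GFP fraction holds cells of that lineage and the tdTomato fraction every other cell of the same suspension. Sorting by these colours gave 1 GFP and 1 tdTomato library from a suspension of 1 female sample, and 1 of each from a suspension pooled from 2 male samples. The comparison asked how the fractions differed, with 2 pairs that also differ in sex and pooling. With the suspension as a block, 1 residual degree of freedom was left. The p-values therefore set each ratio of GFP to tdTomato against a spread estimated with information shared across genes. They do not measure a gene's own difference between those 2 pairs alone.

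The libraries held 10094326 to 13911281 estimated counts. Levels are in CPM, each count as a share of its library's TMM-scaled total, and where 2 values are given for a colour the female library comes first. A count of 0 allows up to 0.201 to 0.319 CPM (3 counts), and intervals and bounds cover counting error only. Female and male GFP had 12008 and 9517 genes at 10 counts or more, and tdTomato 16227 and 15669. The smooth muscle label was borne out in both fractions, with 10 markers summing to 19011 and 17317 CPM in GFP and 15160 and 14418 CPM in tdTomato. Of 13 endothelial markers, 10 were 2-fold or more lower in GFP each time (Kdr and Egfl7 had 0 counts there), as were 5 of 7 macrophage markers (C1qb, Cd68, Lyz2 and Mrc1 at 0). The endothelial markers summed to 114 and 687 CPM in GFP (Erg alone held 549 CPM of the latter) and 535 and 369 CPM in tdTomato, the macrophage markers to 30.7 and 0.639 against 28.3 and 152 CPM, and 10 fibroblast markers to 3862 and 610 against 3599 and 4485 CPM. Melanocyte markers were mixed: of 4 tested, Dct was higher in each pair and Kit and Mitf lower. Their part in the results below was not tested, and in bulk samples fewer cells of a type and less RNA per cell cannot be told apart.

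The promoters of 4 members are shown first because the values below turn on these genes: Nr2c1 and Nr2f2 were low in both GFP libraries, Nr6a1 was level in all 4, and Rarb was read in 1 library. Each sequence is the 250 bases before a RefSeq start on GRCm38.p6 (Nr6a1 has 2 starts in the table, and the window of the other holds 0 half-sites), 5′ to 3′ in the direction of the gene, an earlier build than the GRCm39 named for the counts. They are chr10:94147681-94147930 on the plus strand (Nr2c1), chr7:70366747-70366996 on the minus strand (Nr2f2), chr2:38784516-38784765 on the minus strand (Nr6a1), chr14:16575477-16575726 on the minus strand (Rarb). Capitals mark, on either strand, the half-site AGGTCA that most paired receptors bind and the variants searched with it, which were AGTTCA as well as GGGTCA as well as GGTTCA.
Nr2c1: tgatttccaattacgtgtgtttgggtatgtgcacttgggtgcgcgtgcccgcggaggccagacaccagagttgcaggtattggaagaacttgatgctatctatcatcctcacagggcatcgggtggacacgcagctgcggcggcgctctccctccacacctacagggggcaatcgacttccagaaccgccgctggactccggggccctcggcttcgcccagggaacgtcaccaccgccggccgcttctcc
Nr2f2: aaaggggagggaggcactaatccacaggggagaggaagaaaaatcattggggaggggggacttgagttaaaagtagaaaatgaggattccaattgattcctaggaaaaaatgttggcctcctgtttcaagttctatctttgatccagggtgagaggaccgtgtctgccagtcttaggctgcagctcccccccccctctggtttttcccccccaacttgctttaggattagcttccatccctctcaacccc
Nr6a1: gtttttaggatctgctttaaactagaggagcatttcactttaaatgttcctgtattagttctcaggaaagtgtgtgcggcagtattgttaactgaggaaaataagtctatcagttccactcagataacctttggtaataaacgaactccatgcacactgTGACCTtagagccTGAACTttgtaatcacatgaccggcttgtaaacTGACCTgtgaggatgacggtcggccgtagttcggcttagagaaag
Rarb: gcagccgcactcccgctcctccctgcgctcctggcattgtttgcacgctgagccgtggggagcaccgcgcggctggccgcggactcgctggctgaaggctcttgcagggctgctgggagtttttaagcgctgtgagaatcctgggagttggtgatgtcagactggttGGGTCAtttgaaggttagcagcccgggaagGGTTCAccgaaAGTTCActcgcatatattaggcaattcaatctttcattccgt
At least 1 half-site stood in 20 of 56 promoters of the 35 members found in RefSeq's table, 35.7% against 38.6% of all 32851 promoters of this length. The Rarb window held 2 half-sites in the same direction with a spacer of 5 bases, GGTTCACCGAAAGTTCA, which is the arrangement known from retinoic acid response elements. This repeat lay 53 to 37 bases before the start. Such a repeat was present in 0.0883% of all promoters and in 1 of the 56. The Nr2c1 and Nr2f2 windows held none of the 4 half-sites, which says only that these letters are not in these windows.

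Across the 22 members tested, 7 had a GFP level 2-fold or more below tdTomato in each pair: Nr1h3, Nr2c1, Nr2c2, Nr2e1, Nr2f2, Ppard and Rarg. None was 2-fold or more higher in both. The shares, 31.8% and 0%, stand beside 22.9% lower and 5.17% higher among all 15055 genes tested, and with shares this near the background nothing is read from them about the family. Another 4, Esr1, Esrra, Pgr and Rxra, were at least 2-fold apart in opposite directions in the pairs (18.2%, against 19.2% of all genes). Ratios are log2 of GFP over tdTomato with a prior count of 2, and their median over the members was -0.74 among female and -2.58 among male libraries. For all genes tested these medians were -0.27 and -1.0. With genes at 0 counts set at 3 counts, the members' medians were -0.75 and -2.60, against -0.28 and -1.06.

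**Figure D1:**
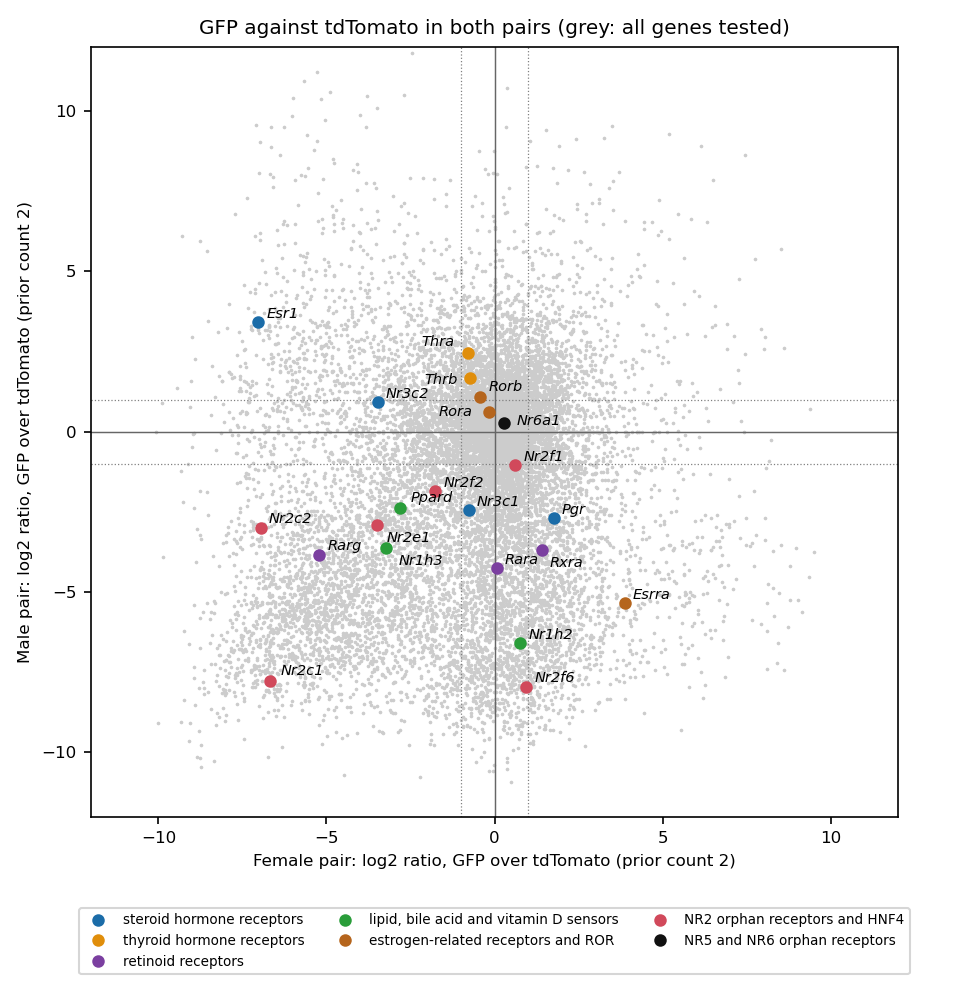
Each point is a gene tested, placed by its log2 ratio of GFP over tdTomato in the female suspension (x axis) and in the male suspension (y axis), with nuclear receptors in colour by role, all other genes in grey and dotted lines at 2-fold. The 7 members low in both pairs lie at the lower left, and the corner 2-fold or more higher in both is empty of members.

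No member passed the test over both pairs. edgeR's quasi-likelihood test with the suspension as a block called 0 of 15055 genes at a Benjamini-Hochberg adjusted p of 0.05 (0% of genes), and members' adjusted p ranged from 0.577 to 1.00. With no adjustment, Nr2c1 and Rarg passed 0.05, both lower in GFP, which is 9.09% of members against 8.31% of all genes. Both had 0 counts in GFP and entered the tests through their tdTomato counts alone, so they could only come out lower. No member was higher at that level (0.292% of all genes). DESeq2 called Nr2c1 alone (adjusted p = 0.00635), 4.55% of members against 7.36% of genes called lower and 0.325% called higher, and limma-voom called 0 genes (0%). The GFP libraries both lay below both tdTomato libraries for 8 members (36.4%, against 29.3% of genes) and above them for Nr6a1 alone (4.55%, against 11.5%). Set against both tdTomato libraries, the male GFP library alone (without female GFP) had 14 members 2-fold or more lower and 3 higher, beside 44.3% and 16.7% of all genes. The female GFP library alone (without male GFP) had 7 and 2 of the 22, beside 31.4% and 15.1%. The median of the members' ratios moved likewise, from -1.71 over both pairs to -2.70 without female GFP and -0.53 without male GFP (all genes -0.76, -1.49 and -0.57).

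Compared per kilobase of the longest coding transcript, the highest levels in tdTomato were those of Nr3c1, Thra, Nr2f2 and Rora, at means of 30.3, 29.9, 24.9 and 23.6 CPM per kb. The lowest among members tested were Nr3c2 and Rorb, at 0.306 and 0.0741 CPM per kb. The GFP libraries had different orders. Female GFP was headed by Nr2f6 at 30.7, Rora at 25.1 and Thra at 22.5 CPM per kb, with Thrb at 6.44, and male GFP by Thra at 114 and Thrb at 43.1, with Nr2f6 at 0. All values from here on are CPM and are not compared between genes.

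**Figure D2:**
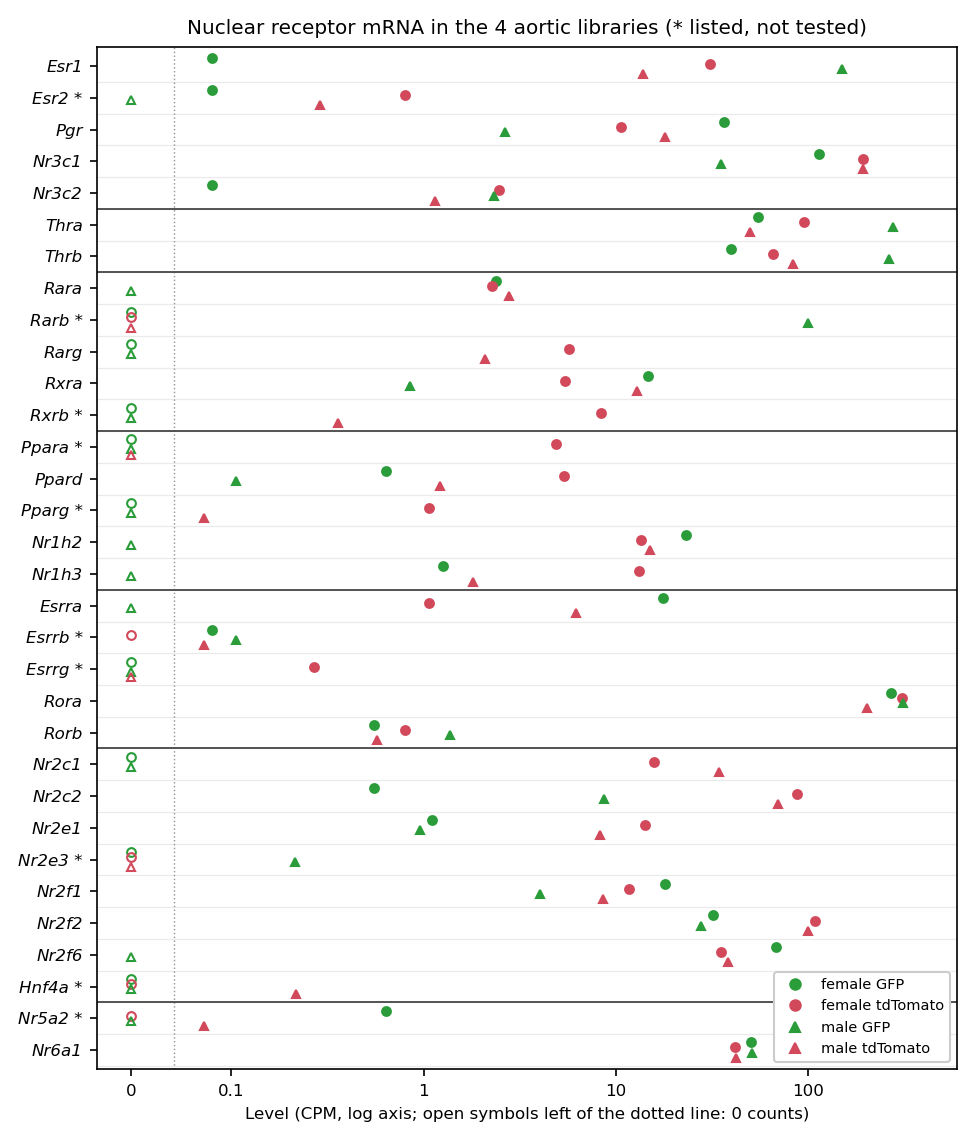
Level of each listed nuclear receptor gene (rows, grouped by role as for the ratio plot) in CPM on a log axis, with green for GFP, red for tdTomato, circles for the female and triangles for the male suspension, and open symbols for 0 counts. Rora and Nr6a1 lie within a narrow range in all 4 libraries, Nr2c1 and Nr2c2 have both green symbols left of both red ones, and Rarb has 1 filled symbol.

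Among the steroid receptors, glucocorticoid receptor mRNA was lower in GFP in both pairs. Nr3c1 (ENSMUSG00000024431), the glucocorticoid receptor, measured 115 CPM in female GFP, 35.3 in male GFP, 195 in female tdTomato and 194 in male tdTomato. Both tdTomato libraries were alike and both GFP libraries lay below them, the male one furthest. The ratios were 1.71-fold (95% counting interval 1.60 to 1.82) in the female suspension, under the 2-fold line, and 5.49-fold (4.90 to 6.17) in the male suspension, averaging on the log2 scale -1.61 ± 1.19 (SD, n = 2 pairs), the edgeR adjusted p being 1.00.

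Esr1 (ENSMUSG00000019768), estrogen receptor alpha, measured 0.0792 CPM (1 count) in female GFP, 151 in male GFP, 31.0 in female tdTomato and 13.9 in male tdTomato. It was thus both the lowest and the highest in GFP, by suspension: 391-fold lower than tdTomato in the female suspension (69.8 to 15476) and 10.9-fold higher in the male suspension (9.35 to 12.7). Pgr, the progesterone receptor, measured 36.7 and 2.66 CPM in female and male GFP against 10.7 and 18.2 CPM in tdTomato. Its pairs differed in the other direction, 3.43-fold higher in GFP in the female suspension (2.86 to 4.13) and 6.84-fold lower in the male suspension (4.52 to 10.8). Nr3c2, the mineralocorticoid receptor, was low throughout, at 1 and 22 counts in GFP and 37 and 16 in tdTomato. Esr2, estrogen receptor beta, had 0 to 12 counts and was not tested.

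Both thyroid hormone receptor genes were highest in the male GFP library. Thra (ENSMUSG00000058756) measured 55.1 CPM in female GFP, 280 in male GFP, 96.3 in female tdTomato and 50.3 in male tdTomato. Thrb (ENSMUSG00000021779) followed the same order of GFP libraries, at 39.9 and 267 CPM against 65.8 and 83.5 CPM in tdTomato. Both were lower in GFP in the female suspension, by 1.75-fold and 1.65-fold, and higher in the male suspension, by 5.55-fold (5.11 to 6.05) and 3.20-fold (2.99 to 3.44). The groups overlapped for both genes, with log2 ratios averaging 0.83 ± 2.31 and 0.48 ± 1.69 (SD, n = 2 pairs). Thra shares 263 exon bases with Nr1d1, the clock receptor on the opposite strand, and the kit does not mark strand. Nr1d1 was likewise highest in male GFP, at 100 CPM against 41.7 in female GFP and 9.03 and 13.7 in tdTomato.

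Retinoic acid receptors were sparse. Rarg had no count (0) in either GFP library and 85 and 29 counts (5.69 and 2.09 CPM) in tdTomato, at least 23.9-fold and 6.53-fold higher there. Rara measured 2.38 and 0 CPM (GFP) versus 2.27 and 2.80 CPM, with 0 counts in male GFP alone. Rarb had 951 counts (101 CPM) in male GFP and 0 in every other library, at least 469-fold over male tdTomato, and with reads in 1 library it did not enter the tests. In the GENCODE annotation of the earlier build, 1793 of its exon bases are shared with Top2b on the opposite strand. Top2b measured 174 and 24.2 CPM in GFP and 166 and 31.1 CPM in tdTomato, and whether the genes share reads was not tested. Of their partners, Rxra measured 14.7 and 0.852 CPM (GFP) versus 5.48 and 12.9 CPM, 2.69-fold higher in GFP in the female suspension (2.06 to 3.53) and 15.1-fold lower in the male suspension (7.51 to 35.5). Rxrb had 0 counts in GFP against 125 and 5 in tdTomato and was not tested.

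The lipid sensors were low in GFP or missing from male GFP. Nr1h3, the LXR alpha of macrophages and fat-handling tissue, measured 1.27 and 0 CPM (GFP) versus 13.2 and 1.80 CPM in tdTomato. Ppard, a fatty acid receptor found in most tissues, measured 0.634 and 0.106 CPM against 5.42 and 1.22 CPM. Both genes were lower in the male than in the female library of the same colour as well, by at least 2-fold, and were the only 2 members tested with that pattern in either direction (9.09%, against 16.6% of all genes). Nr1h2, the broadly expressed LXR beta, stood at 23.2 CPM in female GFP, at 13.6 and 15.1 CPM in tdTomato, but had 0 counts in male GFP, at least 47.3-fold below its tdTomato partner. Ppara had 73 counts and Pparg 16 in female tdTomato, and both had 0 counts in GFP and at most 1 in male tdTomato. Markers of the adipocyte, where Pparg is the main regulator, were few in all libraries, 7 of them summing to 24.6 to 106 CPM with 4 listed and Adipoq at 0 in GFP.

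Among estrogen-related receptors and RORs, 1 gene was abundant in all 4 libraries and the rest were low or uneven. Rora (ENSMUSG00000032238), a constitutively active receptor of the clock and of lipid metabolism, measured 273 CPM in female GFP, 315 in male GFP, 310 in female tdTomato and 204 in male tdTomato. The groups overlapped, and the pairs lay within 2-fold, 1.13-fold lower in GFP (1.09 to 1.19) and 1.55-fold higher (1.47 to 1.63). Esrra, which drives genes of mitochondrial respiration, measured 17.7 and 0 CPM (GFP) versus 1.07 and 6.26 CPM in tdTomato. Its GFP level was 16.6-fold higher in the female suspension (9.99 to 29.5) and at least 19.6-fold lower in the male suspension. Esrra shares 73 exon bases with Trmt112 on the opposite strand, which showed the same pattern at 117 and 0.213 CPM in GFP and 9.30 and 51.5 CPM in tdTomato. Rorb had 7 to 13 counts per library, and Esrrb and Esrrg had at most 4.

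Of 6 NR2 orphan receptors tested, 4 were 2-fold or more lower in GFP in each pair, beside 22.9% of all genes and too few for a share to be read from them. Nr2c1 (ENSMUSG00000005897) had no count (0) in either GFP library against 15.9 CPM (238 counts) in female and 34.5 CPM (480 counts) in male tdTomato, at least 67.0-fold and 108-fold higher. Nr2c2 (ENSMUSG00000005893), its close relative and binding partner on the same elements, measured 0.554 and 8.73 CPM (GFP) versus 88.6 and 70.4 CPM. It was 160-fold lower in the female suspension (77.3 to 398) and 8.06-fold lower in the male suspension (6.43 to 10.2), averaging on the log2 scale -4.98 ± 2.81 (SD, n = 2 pairs), at an edgeR adjusted p of 0.785. Nr2c1 had a mean of -7.23 ± 0.78 and an edgeR adjusted p of 0.577. Nr2c2 shares 4590 exon bases with Mrps25 on the opposite strand, whose levels went apart from it in the female suspension, at 55.3 and 0.106 CPM in GFP and 31.0 and 29.0 CPM in tdTomato.

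Nr2f2 (ENSMUSG00000030551), known for its part in venous and lymphatic endothelium and in mesenchyme, was the member most alike in its 2 pairs among those low in both. It measured 32.2 CPM in female GFP, 28.0 in male GFP, 109 in female tdTomato and 101 in male tdTomato. All libraries of a colour lay close together and the groups did not overlap, 3.39-fold (3.04 to 3.79) and 3.62-fold (3.17 to 4.15) apart, averaging on the log2 scale -1.80 ± 0.07 (SD, n = 2 pairs), the edgeR adjusted p being 1.00. In the same libraries the endothelial markers Cdh5 and Pecam1 measured 0.0792 and 0 CPM and 15.2 and 11.8 CPM (GFP) versus 17.4 and 23.9 CPM and 51.0 and 41.4 CPM. The fibroblast marker Pdgfra measured 0 and 0.426 CPM against 68.6 and 61.8 CPM. In their lists, 10 of 13 endothelial and 3 of 10 fibroblast markers were 2-fold or more lower in GFP in each pair. Others were not: endothelial Flt1 measured 48.3 and 45.6 CPM (GFP) versus 36.1 and 27.0 CPM. Fibroblast Dcn measured 2134 and 153 CPM against 1920 and 2235 CPM. The part of these markers was not tested. Nr2f2 shares 643 exon bases with B130024G19Rik on the opposite strand, which had 0 counts in GFP and 17.6 and 28.0 CPM in tdTomato. Nr2f1, the second COUP factor, did not follow: it measured 18.2 and 4.05 CPM (GFP) versus 11.8 and 8.56 CPM. Nr2e1, best known from neural stem cells, measured 1.11 and 0.958 CPM (GFP) versus 14.2 and 8.27 CPM, 12.8-fold (7.49 to 23.9) and 8.63-fold (4.39 to 19.4) lower. Nr2f6 stood at 68.1 CPM in female GFP, at 35.3 and 38.7 CPM in tdTomato and at 0 in male GFP, at least 121-fold below its partner, and shares 1622 exon bases with Ocel1 on the opposite strand, which stood at 1.82 and 0 CPM in GFP and 12.9 and 3.81 CPM in tdTomato. Nr2e3 and Hnf4a had at most 3 counts in any library.

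Nr6a1 (ENSMUSG00000063972), a receptor of germ cells and the early embryo, was level across all 4 libraries. It measured 50.7 and 51.5 CPM (GFP) versus 41.8 and 42.4 CPM in tdTomato. Both pairs were 1.21-fold apart (1.08 to 1.36 and 1.07 to 1.37), with log2 ratios of 0.28 in each and an edgeR adjusted p of 1.00. Nr5a2 had 8 counts in female GFP and at most 1 elsewhere.

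The GFP libraries differed from each other by a median of 2.54 (absolute log2) over the members and the tdTomato libraries by 0.679, beside 1.90 and 0.809 over all genes. Of the 22 members, 16 were at least 2-fold apart between the GFP libraries (72.7%, against 68.2% of all genes), and 8 between the tdTomato libraries (36.4%, against 42.2%). Members at 0 counts among the 22 numbered 2 in female GFP, 7 in male GFP and 0 in both tdTomato libraries. These are 9.09%, 31.8% and 0%, against 12.8% and 23.4% of all genes tested in GFP and 1.5% and 2.02% in tdTomato. Of 12 members that reached 10 CPM in each tdTomato library, Esr1 and Nr2c1 had at most 3 counts in female GFP (16.7%, against 9.39% of such genes). In male GFP, Nr1h2, Nr2c1 and Nr2f6 did (25.0%, against 23.6%). Pairs pointed in opposite directions, by any amount, for 13 of 22 members (59.1%, against 45.8% of all genes). Sex, pooling and the suspension itself cannot be told apart in these differences.

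Receptors act with cofactors, chaperones and enzymes that make or remove their ligands, and the lists of these were read against the same shares of all genes, 22.9% lower and 5.17% higher in GFP in both pairs. Of 13 coactivators tested, 4 were 2-fold or more lower in GFP in each pair and 3 higher. Ncoa2, a coactivator of steroid receptors, was on the high side, at 171 and 323 CPM (GFP) versus 45.4 and 10.5 CPM in tdTomato. Its relative Ncoa3 was on the low side, at 26.5 and 1.06 CPM against 76.2 and 64.9 CPM. Of 11 corepressors, 3 were lower (Gps2, Lcor and Nsd1) and 0 higher, and Ncor1 was level at 179 and 214 CPM against 197 and 185 CPM. All 10 receptor chaperones were tested and 0 were 2-fold apart in the same direction in both pairs, Hsp90aa1 standing at 5014 and 8081 CPM (GFP) versus 2861 and 4549 CPM. None of these genes was called by edgeR or DESeq2.

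Several ligand enzymes had no reads in GFP at all. Of 8 tested genes of retinoid supply, Rdh10 and Aldh1a1, which carry out the successive oxidations of retinol, had no count (0) in either GFP library against 27.4 and 122 CPM and 33.2 and 30.2 CPM in tdTomato (DESeq2 adjusted p = 0.00338 and 0.00549). Dhrs3, which turns retinal back to retinol, was higher in GFP in both pairs, at 64.9 and 54.8 CPM against 27.6 and 13.7 CPM. Of 8 tested genes acting on steroids, sterols and thyroid hormone, 4 were lower in each pair and 1 higher. Hsd11b1, which regenerates active glucocorticoid, and Ch25h, which makes an LXR ligand, had 0 counts in GFP against 63.0 and 27.2 CPM and 18.1 and 46.6 CPM (DESeq2 adjusted p = 0.00457 and 0.00549). Dio2, which activates thyroid hormone, was lower in both pairs without reaching 0, at 38.4 and 20.9 CPM (GFP) versus 144 and 79.6 CPM. edgeR called none of them. The enzymes at 0 counts in GFP entered the tests through their tdTomato counts alone, so they could only come out lower. Their DESeq2 p-values therefore give no support beyond the counts, and DESeq2 called 7.36% of all genes lower in GFP.

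Known target genes gave a mixed picture. Of 14 glucocorticoid targets, 2 were lower in GFP each time and 1 higher. Tsc22d3 was low, at 4.83 and 0 CPM against 74.6 and 68.7 CPM (DESeq2 adjusted p = 0.0299), whereas Errfi1, a feedback inhibitor of EGF receptor signalling, was high at 407 and 739 CPM against 190 and 333 CPM. Sgk1 lay within 2-fold in each pair, at 1220 and 1681 CPM against 897 and 946 CPM. Of 12 PPAR targets, 4 were lower and 2 higher. Cd36, a fatty acid transporter, was almost absent from GFP at 0.0792 and 0 CPM against 20.7 and 42.6 CPM (DESeq2 adjusted p = 0.00786), while Lpl, lipoprotein lipase, measured 223 and 574 CPM against 88.8 and 62.7 CPM. Of 9 LXR targets, 3 were lower (Mylip, Pltp and Nr1h3, itself a member reported above) and 0 higher. Abca1 stood at 93.4 and 0.213 CPM against 47.5 and 28.8 CPM, low in male GFP alone. Of 6 retinoic acid targets, Meis2 was lower and Dhrs3 higher. Of 9 ERR targets, the member Esrra itself among them, 0 were 2-fold apart in the same direction in both pairs. Among 6 ROR and REV-ERB targets, Arntl, the clock activator, measured 0.0792 and 0 CPM (GFP) versus 15.7 and 19.8 CPM (DESeq2 adjusted p = 0.0140). Nr1d1, as given above with Thra, and Cry1 were on the other side, both 2-fold or more higher in GFP in each pair. Of 3 thyroid hormone and vitamin D targets, Hr was lower, and Klf9 measured 898 and 780 CPM against 670 and 442 CPM. Several lists share genes, and edgeR called none of these targets. Cd36 and Arntl, each with 1 and 0 counts in GFP, likewise entered the tests through their tdTomato counts alone and could only come out lower.

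**Figure D3:**
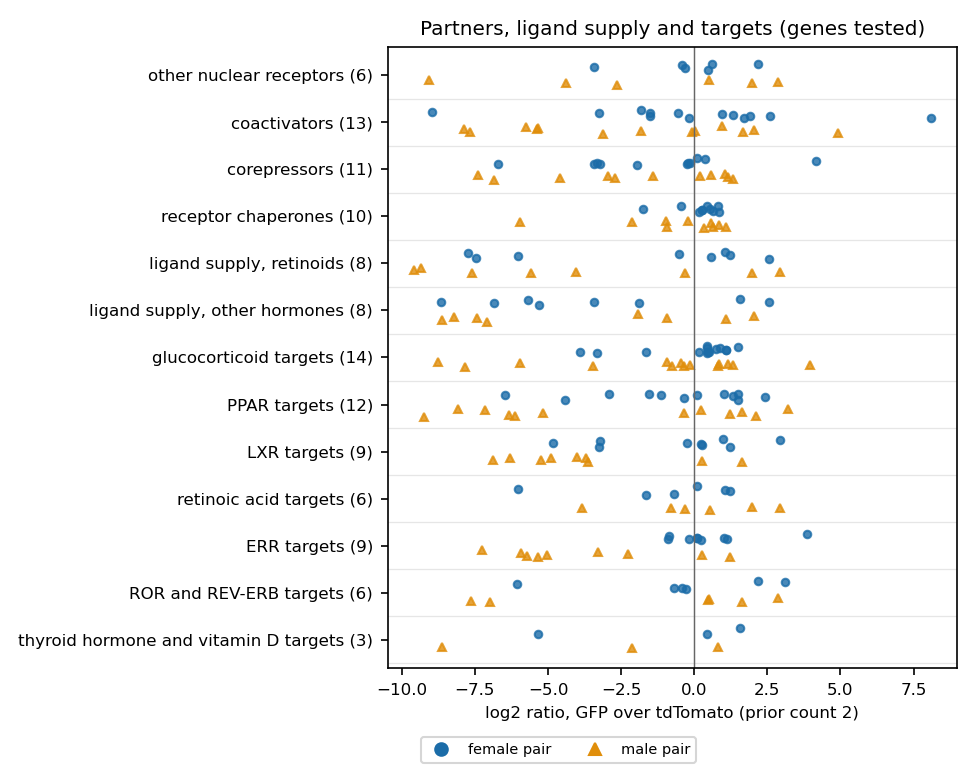
Log2 ratio of GFP over tdTomato (x axis, prior count of 2) of each tested gene in 13 lists of other receptors, cofactors, ligand enzymes and targets (rows, with the number of genes tested), circles for the female and triangles for the male pair. Most chaperones lie near 0, a few lie well below it in the female or the male pair, and the ligand supply lists reach below -7 in both pairs.

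Among other nuclear receptors, Nr1d1 was 2-fold or more higher in GFP in each pair, as given above. Nr4a2, an early response receptor, measured 272 and 952 CPM (GFP) versus 181 and 242 CPM, while Nr4a1 of the same subfamily measured 313 and 63.8 CPM against 225 and 401 CPM.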

How the data were processed

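Polyadenylated RNA of sorted aortic cells was copied by template switching (SMART-Seq v4), amplified and read in pairs, per the labels' protocols; the kit marks no strand. The submitters' processing notes name fastp, HISAT2, StringTie and GRCm39. No source used here gives the counting program or annotation. The authors deposited expected counts per gene, estimated and unscaled, of which 59.4% to 69.1% were whole (tolerance 1e-06).

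Counts were rounded. Symbols were matched by identifier for 76.4% of genes, and GENCODE M21 (an earlier build) gave lengths and exon overlaps. Genes kept by filterByExpr at a minimum of 10 counts (15055) were tested with edgeR 4.0.16 (quasi-likelihood, TMM, suspension as a block, 1 residual degree of freedom, Benjamini-Hochberg across all genes), in R 4.3.3. DESeq2 1.42.0 and limma 3.58.1 were alternatives. Suspensions pair the libraries because both colours were sorted from the same suspension. The correlation of deviations within pairs was 0.05. Single-library folds have exact 95% binomial intervals.

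The members and lists were chosen with earlier results of these data known. All members could be named, and of each list the 3 most abundant genes and those at least 2-fold apart alike in both pairs. Cdh5, Erg, Flt1, Dct, Kit, Mitf, Pecam1, Pdgfra, Dcn, Kdr, Egfl7, C1qb, Cd68, Lyz2, Mrc1, Adipoq and the overlapping genes were named as markers or neighbours beside results. Alternatives were other scalings, no filter, no block, another prior count, a 4-fold line and leaving out each library.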

Additional observations from a re-analysis of the deposited data

Results flagged for a closer look

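For 13 members the ratio of GFP over tdTomato had opposite signs in the female and male pairs, and with 1 library on each side this difference was not tested. The male ratio minus the female ratio (log2, prior count of 2) was 10.47 for Esr1, -9.22 for Esrra, -8.89 for Nr2f6, -7.36 for Nr1h2 and -5.09 for Rxra. It was -4.46 for Pgr, 4.41 for Nr3c2, -4.29 for Rara, 3.27 for Thra and 2.40 for Thrb. It was smaller for Nr2f1 (-1.68), Rorb (1.5) and Rora (0.81).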

How the results depend on the processing

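Under DESeq2's size factors and under library totals alone, the number of members 2-fold or more below tdTomato in each pair was 7, as reported, and 0 were higher. These scalings moved the median ratio of all genes by 0.12 and 0.22 and by -0.21 and -0.20 (log2, female and male pair), and no member's mean ratio changed sign. Without the filter on low counts, 9 of 32 members were lower. At a 4-fold line, 6 were lower and 1 in place of 2 was apart between the suspensions in both colours. Leaving out each library in turn gave 5 to 14 members lower and 0 to 3 higher than each library of the other colour (23.5% to 44.3% and 6.47% to 16.7% of all genes), and medians of -2.70 to -0.53. edgeR called 0 genes under every other scaling, filter and left-out library, and also with no replicate block (unadjusted p under 0.05 for 1983 genes, against 1295 with the block). DESeq2 called 1157 genes, 1108 of them lower in GFP, and the cause was not tested. Mean ratios of members whose pairs pointed in opposite directions did change sign: 9 without male GFP, 2 without female GFP, 2 without male tdTomato, 1 without female tdTomato and 4 with no block. None of the 7 members low in both pairs did. Their selection set this in advance, since both GFP libraries lay below both tdTomato libraries for each of them. Low counts limit Rorb, Nr3c2, Ppard and the untested members.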
